A study of Homo sapiens with 10 samples.

Results

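The 10 genes described here belong to the output side of the Hippo pathway: CTGF, CYR61, ANKRD1, AMOTL2, LATS2 and AXL, which are known targets of YAP and TEAD, the coactivator genes YAP1 and WWTR1, the DNA-binding partner TEAD1, and VGLL1, which binds the same TEAD surface as YAP. They were taken by gene symbol, and all 10 were found among the 23426 genes listed for every sample. The choice of these genes was made with results of the same data in view, so their response to the drug is given as a description. RNA was sequenced from 2 established breast cancer cell lines, MDA-MB-468 (triple-negative and basal-like) and ZR75-1 (luminal). Cells had been kept for 6 h in DMSO, the solvent, or in PKC412 (midostaurin), an inhibitor of many kinases, for which the sample labels give a dose of 1 μM. Each line had 2 samples in DMSO and 3 samples in PKC412, which makes 10 samples, and no genetic change was introduced into either line. All samples of a line came from that 1 line, and the labels do not say whether replicates were separate cultures, so the spread between them may be technical.

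The Hippo pathway is a kinase cascade in which STK3 and STK4 act on LATS1 and LATS2, and the LATS kinases phosphorylate YAP and its paralog TAZ (the product of WWTR1), which then stay in the cytoplasm. When the kinases are inactive, YAP and TAZ enter the nucleus, bind TEAD proteins and switch on genes such as CTGF and CYR61. In breast cells YAP and TAZ are known for growth and for basal and mesenchymal traits. Several targets feed back on the pathway, since LATS2 inhibits YAP and AMOTL2 can hold it outside the nucleus.

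The values deposited by the authors are FPKM, fragments scaled by transcript length and by mapped fragments, so levels of different genes can be set side by side per length. Depth could not be recovered from the FPKM, and precision rests on the spread between replicates. FPKM sums ranged from 599228 to 835069 per sample. The summed FPKM of 5 basal markers (KRT5, KRT14, KRT17, EGFR and VIM) lay between 2354 and 2639 in MDA-MB-468 and between 0.409 and 1.87 in ZR75-1. That of 5 luminal markers (ESR1, GATA3, FOXA1, KRT8 and KRT18) lay between 1746 and 3473 in MDA-MB-468 and between 4457 and 9716 in ZR75-1, so the markers stood on the side that the labels give. In both lines the luminal sum was lower in every PKC412 sample than in every DMSO sample. KRT8 and KRT18 make up nearly all of that sum, and both were lower. ESR1 and FOXA1 had higher means in PKC412, by ratios of 1.90 and 2.22 in MDA-MB-468 and of 1.39 and 1.58 in ZR75-1. The ratios of GATA3 were 1.10 and 0.91. None of the 5 passed by limma in either line. The sum of 6 leukocyte and fibroblast markers moved with the drug as well, from 0.916 to 0.978 in DMSO and from 1.41 to 1.65 in PKC412 in MDA-MB-468, and from 2.25 to 2.76 and from 6.68 to 11.1 in ZR75-1. COL1A1, a collagen gene, was the 1 marker of the 6 with a mean FPKM above 0.1 in any group. It rose with PKC412 in ZR75-1 (log2 difference 1.49, SE 0.20, limma adjusted p = 0.0182), and its difference of 0.35 (SE 0.20) in MDA-MB-468 did not pass. The part of these markers in the members' values was not tested.

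Sequences upstream of the start of transcription are shown for those members past the threshold in MDA-MB-468 whose windows held the recognition motif of TEAD proteins. RefSeq sequences on GRCh38.p14, the 250 bases before each start, were found for 8 of the 10 members. CYR61 and TEAD1 had no entry in the table used. The motif searched was GGAATG, with CATTCC for the other strand. At least 1 copy lay upstream of 6 of the 8 members (CTGF, ANKRD1, AMOTL2, AXL, YAP1 and VGLL1), in 6 of the 11 windows of the 8, of which 3 have 2 starts, against 11.9% of 35116 such windows of all genes. Windows with 2 or more copies, held by CTGF and ANKRD1, were 0.928% of all. A match of these letters is a description of the window and says nothing about binding in these cells. The members include known targets of YAP and TEAD, so their share of windows with the motif is no independent result. The upstream windows of CTGF (chr6:131951373-131951622, minus strand), ANKRD1 (chr10:90921088-90921337, minus strand), the second start of AMOTL2 (chr3:134374448-134374697, minus strand) and VGLL1 (chrX:136531965-136532214, plus strand) are printed 5′ to 3′ along the gene, with the motif on either strand in capitals and the start of transcription just after the last base.
CTGF: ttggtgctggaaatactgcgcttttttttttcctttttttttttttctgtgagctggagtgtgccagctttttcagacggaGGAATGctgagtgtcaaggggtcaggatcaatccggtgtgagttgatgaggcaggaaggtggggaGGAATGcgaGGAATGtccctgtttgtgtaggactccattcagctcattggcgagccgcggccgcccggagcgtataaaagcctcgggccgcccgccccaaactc
ANKRD1: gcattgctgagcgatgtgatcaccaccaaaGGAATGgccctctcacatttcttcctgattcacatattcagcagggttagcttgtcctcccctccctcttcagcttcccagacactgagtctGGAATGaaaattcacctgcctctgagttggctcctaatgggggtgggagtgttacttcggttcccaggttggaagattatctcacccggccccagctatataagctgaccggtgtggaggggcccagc
AMOTL2: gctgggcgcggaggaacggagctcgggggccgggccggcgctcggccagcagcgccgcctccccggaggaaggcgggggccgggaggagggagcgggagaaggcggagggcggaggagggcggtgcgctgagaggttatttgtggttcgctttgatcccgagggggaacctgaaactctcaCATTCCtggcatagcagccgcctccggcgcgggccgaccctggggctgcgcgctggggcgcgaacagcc
VGLL1: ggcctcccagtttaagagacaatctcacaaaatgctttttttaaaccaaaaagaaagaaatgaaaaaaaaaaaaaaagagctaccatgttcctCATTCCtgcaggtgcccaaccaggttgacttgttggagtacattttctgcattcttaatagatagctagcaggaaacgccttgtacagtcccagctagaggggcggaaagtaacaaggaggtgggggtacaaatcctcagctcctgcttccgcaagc
The CTGF window held 3 copies, with first bases 169, 104 and 95 bases upstream of the start. ANKRD1 held 2, at 220 and 128 bases. AMOTL2 held 1 at 69 bases before its second start and none before its first, and VGLL1 held 1 at 157 bases. The copies in CTGF and ANKRD1 read GGAATG along the gene, and those of AMOTL2 and VGLL1 read CATTCC. No copy lay in the windows of LATS2 or WWTR1.

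The first question was how the 10 genes stood in PKC412 against DMSO within each line. In MDA-MB-468, the target genes CTGF, CYR61, ANKRD1 and AMOTL2 were all lower in PKC412, by ratios of mean FPKM from 4.07 to 34.0, and VGLL1 was 1.72-fold lower. In bulk RNA, fewer cells that express a gene and less RNA per cell cannot be told apart. YAP1, WWTR1 and TEAD1 had higher values in every PKC412 sample than in either DMSO sample but did not pass the test. In ZR75-1, where CTGF and ANKRD1 were already close to 0 in DMSO while CYR61 and AMOTL2 were not, VGLL1 was the 1 member past the threshold. By limma on log2(FPKM + 1), with Benjamini-Hochberg adjusted p under 0.05 over 16071 genes tested, 5 of 10 members passed in MDA-MB-468 and 1 of 10 in ZR75-1, all of them lower in PKC412. Of all genes tested, 0.566% passed as lower, 0.691% as higher and 1.26% in either direction in MDA-MB-468, and 0.199%, 0.747% and 0.946% did in ZR75-1. Because the members were chosen with these contrasts known, nothing is read from their shares. The median log2 difference over all genes tested was 0.11 for MDA-MB-468 and 0.07 for ZR75-1, and over the 10 members it was -0.37 and -0.03.

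**Figure D1:**
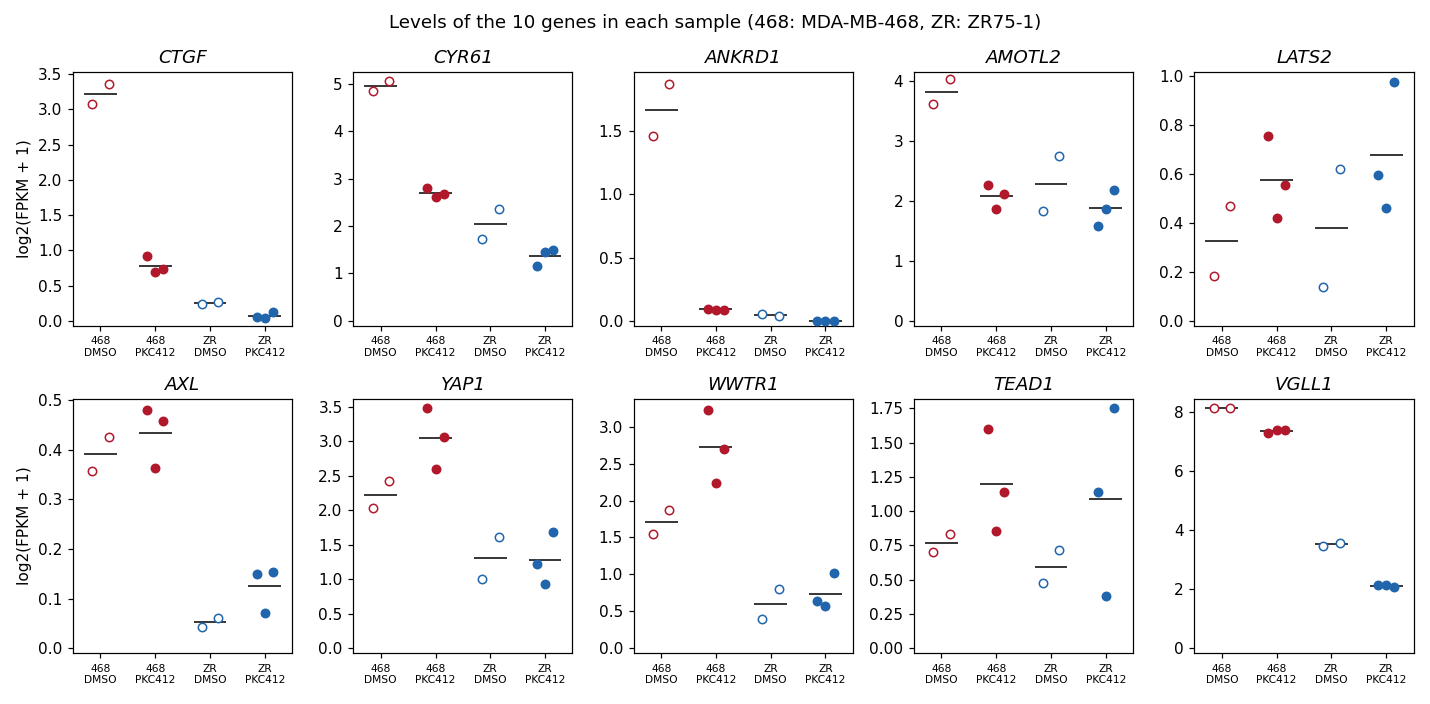
Level of each of the 10 genes in each sample, as log2(FPKM + 1) on the vertical axis, for MDA-MB-468 (red) and ZR75-1 (blue) in DMSO (open points) and PKC412 (filled points); the horizontal bar is the group mean, and each panel has its own scale. CTGF, CYR61, ANKRD1 and VGLL1 step down from MDA-MB-468 in DMSO to ZR75-1 in PKC412 with no overlap between neighbouring groups, whereas for LATS2 and TEAD1 the groups next to each other in level overlap.

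CTGF encodes a secreted matricellular protein of the CCN family and is the most used readout of YAP and TEAD. In MDA-MB-468 its FPKM was 7.40 and 9.30 in DMSO and 0.884, 0.622 and 0.658 in PKC412. Every treated sample lay far below both control samples. The means were 8.35 ± 1.34 (SD, n = 2) and 0.722 ± 0.142 (SD, n = 3), a level 11.6-fold lower in PKC412, and the log2 difference was -2.44 (SE 0.12). In ZR75-1 CTGF was at 0.180 and 0.203 in DMSO and at 0.0404, 0.0287 and 0.0853 in PKC412. The treated samples were again below the controls, with a ratio of 3.72, but at such levels the log2(FPKM + 1) difference was -0.18 (SE 0.12) and did not pass. CTGF stood at percentile 77.8 of all 23426 genes in MDA-MB-468 in DMSO and at percentile 49.3 in PKC412, against 44.7 and 35.0 in ZR75-1.

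CYR61, a second CCN family member that binds integrins, had the highest FPKM of the 6 targets in MDA-MB-468. Its FPKM in MDA-MB-468 was 28.0 and 32.3 in DMSO and 5.93, 5.09 and 5.35 in PKC412. The treated samples formed a narrow group, 5.52-fold below the controls (5.46 ± 0.426, SD, n = 3, against 30.1 ± 3.07, SD, n = 2), and the log2 difference was -2.27 (SE 0.21). In ZR75-1 CYR61 was at 2.32 and 4.15 in DMSO and 1.23, 1.72 and 1.81 in PKC412. The groups did not overlap and the ratio was 2.04, but the log2 difference of -0.68 (SE 0.21) did not pass. It passed in ZR75-1 (-0.80, SE 0.14) when the FPKM were adjusted for the GC content and length of transcripts.

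ANKRD1 encodes a nuclear ankyrin-repeat protein, known from heart muscle, that YAP and TEAD induce in many epithelial cells. In MDA-MB-468 the 2 DMSO samples had an FPKM of 1.74 and 2.66, and the PKC412 samples had 0.0693, 0.0619 and 0.0631. The mean went from 2.20 ± 0.650 (SD, n = 2) to 0.0648 ± 0.00398 (SD, n = 3), a 34.0-fold lower level, with a log2 difference of -1.57 (SE 0.10) on a scale that understates changes of low genes. In ZR75-1 ANKRD1 was near 0 throughout, at 0.0381 and 0.0261 in DMSO and listed at 0 in all 3 PKC412 samples, for which no ratio is given.

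AMOTL2 encodes a scaffold at cell junctions that binds YAP. Its FPKM in MDA-MB-468 was 11.3 and 15.4 in DMSO and 3.83, 2.65 and 3.35 in PKC412. The groups stood apart, with means of 13.3 ± 2.92 (SD, n = 2) and 3.28 ± 0.592 (SD, n = 3), a ratio of 4.07 and a log2 difference of -1.74 (SE 0.31). Its place past the threshold was the least secure of the 5, since it was held in 2 of the 10 fits that left out 1 sample (the 2 without a ZR75-1 DMSO sample), with log2 differences from -1.95 to -1.53, and was not held with a pseudocount of 0.1. In ZR75-1 the AMOTL2 groups overlapped, at 2.55 and 5.75 in DMSO and 2.01, 2.64 and 3.57 in PKC412, and the log2 difference was -0.41 (SE 0.31).

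LATS2, the kinase that inhibits YAP, and AXL, a receptor tyrosine kinase of the TAM family, did not share this pattern. LATS2 stayed below an FPKM of 1 in every sample. In MDA-MB-468 it was at 0.134 and 0.384 in DMSO and 0.690, 0.337 and 0.468 in PKC412, and in ZR75-1 at 0.101 and 0.535 against 0.510, 0.378 and 0.966. The treated and control samples overlapped in both lines, and the log2 differences were 0.25 (SE 0.20) and 0.30 (SE 0.20). AXL was at 0.281 and 0.344 in DMSO and 0.395, 0.286 and 0.373 in PKC412 in MDA-MB-468, again overlapping, with a log2 difference of 0.04 (SE 0.05). In ZR75-1 AXL was at 0.0303 and 0.0429 in DMSO and 0.109, 0.0502 and 0.112 in PKC412. There all treated samples were above the controls, at values near 0, and the log2 difference of 0.07 (SE 0.05) did not pass.

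YAP1 and WWTR1 encode the coactivators themselves. WWTR1 overlaps an antisense gene that the files also list, and whether reads were counted by strand is not given in the sources used here. YAP1 in MDA-MB-468 had an FPKM of 3.08 and 4.34 in DMSO and 10.2, 5.02 and 7.36 in PKC412. WWTR1 had 1.92 and 2.66 in DMSO and 8.42, 3.71 and 5.47 in PKC412. Both were above the controls in every treated sample, and in both PKC412 replicate 1 was the highest and replicate 2 the lowest of the treated samples. The means in DMSO and PKC412 were 3.71 ± 0.887 (SD, n = 2) and 7.52 ± 2.59 (SD, n = 3) for YAP1, a log2 difference of 0.82 (SE 0.34). For WWTR1 they were 2.29 ± 0.523 and 5.87 ± 2.38, a log2 difference of 1.01 (SE 0.30). Neither difference passed. In ZR75-1, YAP1 was at 0.994 and 2.04 in DMSO and 1.33, 0.908 and 2.20 in PKC412, and WWTR1 at 0.315 and 0.744 against 0.551, 0.485 and 1.02. These groups overlapped, with log2 differences of -0.02 (SE 0.34) and 0.14 (SE 0.30).

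TEAD1 encodes a member of the TEAD family, through which YAP and TAZ reach DNA. Its FPKM in MDA-MB-468 was 0.627 and 0.784 in DMSO and 2.03, 0.806 and 1.20 in PKC412. PKC412 replicate 2 lay close to the upper control sample, and the log2 difference of 0.43 (SE 0.37) did not pass. In ZR75-1 TEAD1 ranged from 0.389 to 0.642 in DMSO and from 0.303 to 2.36 in PKC412, so the treated samples lay on both sides of the controls.

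VGLL1, a cofactor that binds TEAD in place of YAP or TAZ, was by far the most abundant member in MDA-MB-468. It had the highest mean in ZR75-1 too, but in PKC412 its samples there lay within the range of AMOTL2. MIR934, a microRNA gene also listed in the files, overlaps it, so its FPKM is uncertain where reads could be assigned to either. In MDA-MB-468 its FPKM was 281 and 280.4 in DMSO and 155, 169.6 and 166 in PKC412. The means of 281 ± 0.704 (SD, n = 2) and 164 ± 7.73 (SD, n = 3) put it 1.72-fold lower, with a log2 difference of -0.78 (SE 0.09). In ZR75-1 it was at 10.1 and 10.8 in DMSO and 3.39, 3.38 and 3.20 in PKC412, with no overlap in either line. The ZR75-1 means were 10.5 ± 0.458 and 3.32 ± 0.108, a ratio of 3.15 and a log2 difference of -1.41 (SE 0.09). VGLL1 was thus lower in PKC412 in all 6 treated samples. In MDA-MB-468 its call was lost without either DMSO sample (log2 differences from -0.80 to -0.74 over the left-out fits), and in ZR75-1 it was lost when that line was fitted alone.

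**Figure D2:**
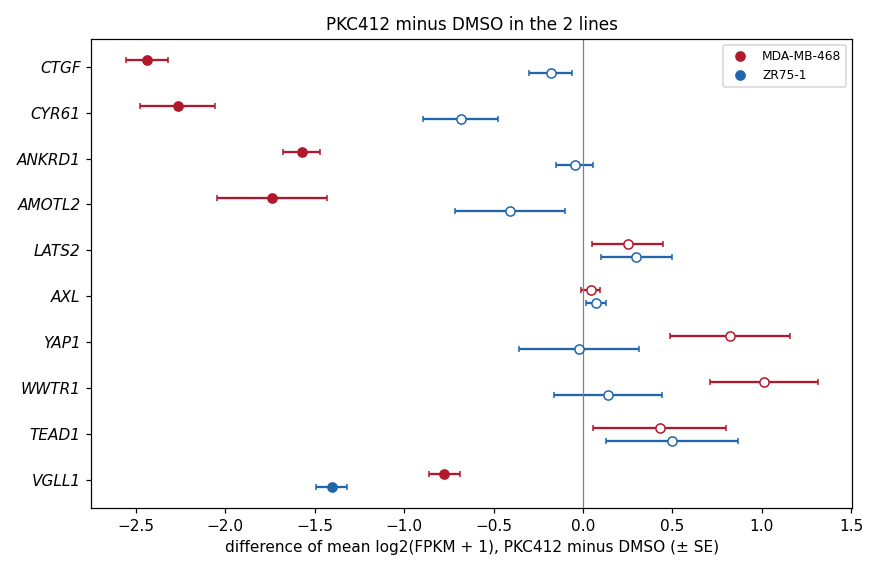
Difference of mean log2(FPKM + 1) between PKC412 and DMSO for the 10 genes in MDA-MB-468 (red) and ZR75-1 (blue), with its standard error; filled points passed the limma threshold over all genes and open points did not. CTGF, CYR61, ANKRD1, AMOTL2 and VGLL1 are filled and left of 0 in MDA-MB-468, and VGLL1 (-1.41) is the 1 filled point in ZR75-1.

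The difference between the 2 drug effects, MDA-MB-468 minus ZR75-1, was -2.26 (SE 0.17) for CTGF and -1.53 (SE 0.15) for ANKRD1 on the log2 scale, and these 2 members passed the threshold for it, as did 0.268% of all genes (0.199% with a lower and 0.0684% with a higher value in MDA-MB-468). It was -1.58 (SE 0.30) for CYR61, -1.33 (SE 0.44) for AMOTL2 and 0.63 (SE 0.12) for VGLL1, which did not pass. Since CTGF and ANKRD1 were near 0 in ZR75-1 already in DMSO, log2(FPKM + 1) left little room there for a lower value. By ratios of mean FPKM, 4 members were at least 3-fold lower in MDA-MB-468 (CTGF, CYR61, ANKRD1 and AMOTL2), as were 1.07% of 14955 genes, and 2 were in ZR75-1 (CTGF and VGLL1), as were 0.932% of 14587 genes. The members at least 3-fold higher were 0 in both lines, against 6.14% and 3.15% of genes. These shares are over genes with a mean FPKM above 0.1 in a treatment of that line, which in ZR75-1 leaves out ANKRD1 and AXL and keeps 8 members. All PKC412 samples lay below all DMSO samples for 5 members in MDA-MB-468 and for 17.2% of genes, and in ZR75-1 for 3 of the 8 members (CTGF, CYR61 and VGLL1) and 7.12% of genes. All lay above for 3 members in MDA-MB-468 (YAP1, WWTR1 and TEAD1) and 41.8% of genes, and in ZR75-1 for 0 of the 8 members and 15.4% of genes. ANKRD1 (below) and AXL (above) also stood apart in ZR75-1, at values under that limit. The 3 members on the higher side in MDA-MB-468 thus shared that placement with a large part of all genes, 6257 in number.

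The samples differed in how FPKM ran with base composition, within treatments as well as between them. For each sample, the slope of the log2 deviation from the line mean against the GC content of the transcript was taken, per 10 percentage points of GC. The slopes of MDA-MB-468 were 0.37 and 0.06 in DMSO and -0.29, -0.02 and -0.12 in PKC412. The treatments were apart there, but their nearest values were 0.06 and -0.02, and each treatment had a wide spread. In ZR75-1 the slopes were 0.31 and -0.19 in DMSO and -0.11, 0.34 and -0.36 in PKC412, so the treatments overlapped. YAP1, WWTR1 and TEAD1 have AT-rich, long transcripts, with 43.5%, 40.9% and 41.3% GC and 5398, 5030 and 8477 nt. In MDA-MB-468 the FPKM of these 3 genes was higher at each step to a sample of lower slope, as it was for 29.8% of 14955 genes, and in ZR75-1 that held for YAP1 and for 10.7% of 14587 genes. The median PKC412 difference of 2056 genes under 45% GC with at least 4500 nt was 0.37 in MDA-MB-468, and 92.4% of them were above 0. In the GC class of 40 to 45%, the median over 2894 genes was 0.33, and in the class of 50 to 55% it was 0.06.

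CTGF (51.5% GC), CYR61 (50.3%), AMOTL2 (56.7%) and VGLL1 (51.9%) lie in classes whose median difference was close to 0, and ANKRD1 (43.3%) lies in 1 with a positive median. After adjustment of the FPKM for GC content and length, the MDA-MB-468 differences were 0.30 (SE 0.12) for YAP1, 0.46 (SE 0.14) for WWTR1 and 0.08 (SE 0.18) for TEAD1, well under the unadjusted values. Those of CTGF (-2.55), CYR61 (-2.45), ANKRD1 (-1.75), AMOTL2 (-1.86) and VGLL1 (-0.69) were about as large as before and past the threshold. The adjustment can also remove a drug effect that runs along GC content, and which of these the values of YAP1, WWTR1 and TEAD1 reflect was not tested.

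**Figure D3:**
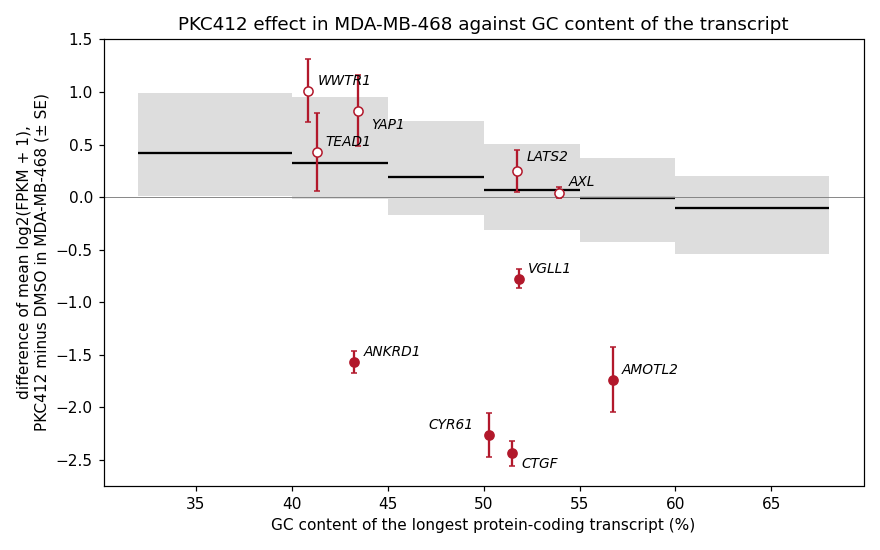
PKC412 minus DMSO difference of mean log2(FPKM + 1) in MDA-MB-468 (vertical axis, with standard error) against the GC content of the transcript (horizontal axis, %) for the 10 genes, with filled points past the limma threshold; black lines are medians of all genes in each GC class, from 0.42 below 40% GC to -0.10 from 60% on, and grey bands run from the 10th to the 90th percentile. WWTR1, YAP1 and TEAD1 lie near or inside the band of their class, and the 5 filled points lie below theirs.

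The second question was how the levels of the 10 genes differed between the lines. In DMSO, 7 of the 10 were lower in ZR75-1 than in MDA-MB-468 (CTGF, CYR61, ANKRD1, AMOTL2, AXL, WWTR1 and VGLL1) and none was higher. Of all genes tested, 26.5% passed as lower in ZR75-1 and 42.4% in either direction, so a difference between these lines is common. The members and the pathway lists were chosen with earlier results of these data known. The p-values given for them here and below are thus a description and not an independent test. VGLL1 had the largest difference on the log2(FPKM + 1) scale, though not the largest ratio, with mean FPKM of 281 and 10.5, a 26.9-fold ratio (log2 difference, ZR75-1 minus MDA-MB-468, -4.62, SE 0.10, limma adjusted p = 2.73e-08). CYR61 was 9.31-fold higher in MDA-MB-468 (log2 difference -2.91, SE 0.23, limma adjusted p = 2.61e-05). ANKRD1, at 2.20 against 0.0321, differed by a ratio of 68.7 (-1.62, SE 0.11, limma adjusted p = 1.37e-05). CTGF was 43.7-fold higher in MDA-MB-468, with a log2 difference of -2.97 (SE 0.13). Its level in both lines was known when it was chosen, so no p-value is given for it. The p-values of the other members are no independent tests either, since earlier results of these data were known for the whole choice. For AXL, which is low in both lines, the ratio was 8.53 (-0.34, SE 0.06, limma adjusted p = 0.0019).

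The differences of AMOTL2 and WWTR1 in DMSO were closer to the threshold. AMOTL2 was at 13.3 in MDA-MB-468 and 4.15 in ZR75-1 (log2 difference -1.54, SE 0.34, limma adjusted p = 0.00669), and the call was lost without DMSO replicate 2 of MDA-MB-468 (log2 differences from -2 to -1.07 over the left-out fits). WWTR1 was at 2.29 and 0.529 (-1.11, SE 0.33, limma adjusted p = 0.0261), and its call was lost without either DMSO sample of MDA-MB-468 or without DMSO replicate 1 of ZR75-1 (-1.31 to -0.91). YAP1, at 3.71 and 1.52, did not pass (-0.92, SE 0.37, limma adjusted p = 0.0773), although both MDA-MB-468 samples were above both ZR75-1 samples. With FPKM adjusted for GC content and length YAP1 did (-1.13, limma adjusted p = 0.000125). That adjustment is fitted within each line, over its DMSO and PKC412 samples together. It thus lets treated samples into the DMSO values and does not adjust for GC content or length between the lines. LATS2 (0.259 against 0.318, log2 difference 0.05, SE 0.22) and TEAD1 (0.706 against 0.515, log2 difference -0.17, SE 0.41) overlapped between the lines.

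In PKC412, 6 members were lower in ZR75-1, where 37% of all genes tested passed as lower and 58.6% in either direction. The values of these samples do not enter the DMSO differences. Both contrasts come from 1 fit of all 10 samples and share its estimate of spread, so their tests are not independent. VGLL1 (log2 difference -5.25, SE 0.08, limma adjusted p = 5.04e-09), CYR61 (-1.33, SE 0.19, limma adjusted p = 0.000466), AXL (-0.31, SE 0.05, limma adjusted p = 0.000734) and CTGF (-0.71, SE 0.11) were again lower in ZR75-1. YAP1 (-1.77, SE 0.30, limma adjusted p = 0.00125) and WWTR1 (-1.98, SE 0.27, limma adjusted p = 0.000352) were 5.08-fold and 8.57-fold higher in MDA-MB-468. ANKRD1 and AMOTL2, which differed in DMSO, did not pass in PKC412, with log2 differences of -0.09 (SE 0.09) and -0.20 (SE 0.28). The ANKRD1 samples were apart, at 0.0619 to 0.0693 in MDA-MB-468 and listed at 0 in ZR75-1, and with a pseudocount of 0.1 the difference passed (-0.72, limma adjusted p = 0.00865). For AMOTL2 the treated samples of the lines overlapped, at 2.65 to 3.83 in MDA-MB-468 and 2.01 to 3.57 in ZR75-1.

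The order of the 4 groups was the same for CTGF, CYR61, ANKRD1 and VGLL1: MDA-MB-468 in DMSO was highest, followed by MDA-MB-468 in PKC412, ZR75-1 in DMSO and ZR75-1 in PKC412, and the samples of neighbouring groups did not overlap. For AMOTL2, MDA-MB-468 in DMSO stood above the other groups, which overlapped with each other in turn. For YAP1 and WWTR1, MDA-MB-468 in PKC412 was highest and MDA-MB-468 in DMSO second, and the ZR75-1 groups overlapped. For AXL the MDA-MB-468 groups overlapped and stood above both ZR75-1 groups. All neighbours overlapped for LATS2 and for TEAD1.

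**Figure D4:**
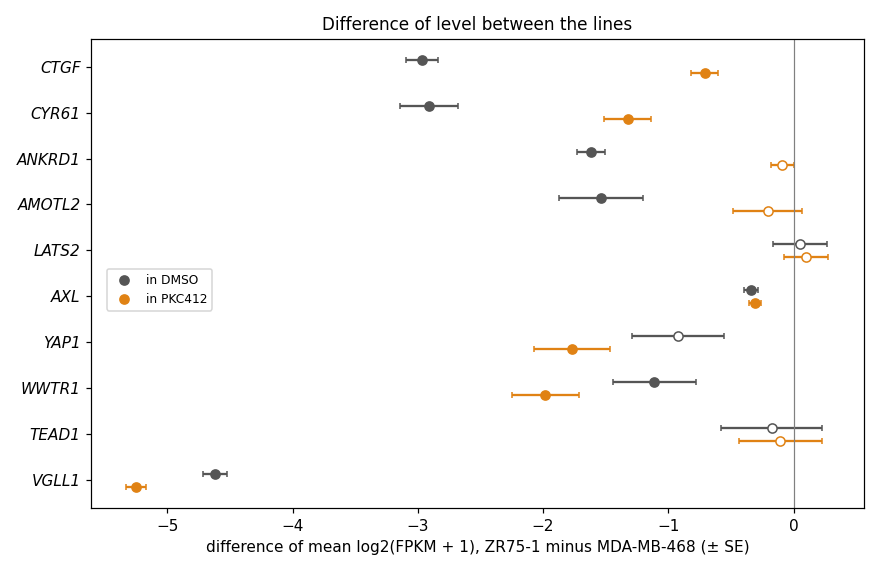
Difference of mean log2(FPKM + 1) between the lines, ZR75-1 minus MDA-MB-468, with its standard error, for the 10 genes in DMSO (grey) and in PKC412 (orange); filled points passed the limma threshold over all genes. VGLL1 lies farthest to the left in both (-4.62 and -5.25), ANKRD1 and AMOTL2 are filled in DMSO and open in PKC412, and YAP1 is open in DMSO and filled in PKC412.

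Set within its family, TEAD1 was the scarcest TEAD gene in both lines in DMSO. Of the summed FPKM of TEAD1 to TEAD4, TEAD1 made up 0.884% ± 0.197 (SD, n = 2) in DMSO against 1.86% ± 0.831 (SD, n = 3) in PKC412 in MDA-MB-468. Its shares in ZR75-1 were 0.928% ± 0.500 (SD, n = 2) and 3.21% ± 2.76 (SD, n = 3). TEAD4 made up 50.8% ± 7.73 (SD, n = 2) in DMSO against 31.7% ± 2.94 (SD, n = 3) in PKC412 in MDA-MB-468, and its shares in ZR75-1 were 88.0% ± 5.77 (SD, n = 2) and 78.5% ± 5.71 (SD, n = 3). TEAD4 itself had an FPKM of 47.3 and 34.7 in DMSO and 20.8, 23.4 and 23.9 in PKC412 in MDA-MB-468, with no overlap, but its log2 difference of -0.81 (SE 0.22, limma adjusted p = 0.153) did not pass. The summed FPKM of the 4 genes was 80.4 ± 5.32 (SD, n = 2) and 71.8 ± 3.05 (SD, n = 3) in MDA-MB-468 in DMSO and PKC412, and 58.8 ± 12.4 (SD, n = 2) and 42.6 ± 4.41 (SD, n = 3) in ZR75-1.

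VGLL1 exceeded all TEAD genes together in MDA-MB-468 and was far below them in ZR75-1. The ratio of its FPKM to the TEAD sum was 3.50 ± 0.223 (SD, n = 2) in DMSO against 2.28 ± 0.182 (SD, n = 3) in PKC412 in MDA-MB-468, and 0.183 ± 0.0463 (SD, n = 2) and 0.0784 ± 0.00604 (SD, n = 3) in ZR75-1. The ratio ranges of DMSO and PKC412 did not overlap in either line. The summed FPKM of YAP1 and WWTR1 in MDA-MB-468 was 6.00 ± 1.41 (SD, n = 2) without and 13.4 ± 4.96 (SD, n = 3) with PKC412, while ZR75-1 had 2.05 ± 1.04 (SD, n = 2) and 2.16 ± 0.947 (SD, n = 3). YAP1 was the larger of the pair in every group, from 56.6% ± 1.56 (SD, n = 3) in MDA-MB-468 in PKC412 to 74.6% ± 1.86 (SD, n = 2) in ZR75-1 in DMSO. All of these are levels of RNA.

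Beyond the 10 members, 45 further genes of the pathway were listed, of which 40 were expressed enough to be tested. In MDA-MB-468, 1 of the 40 changed with PKC412, and in ZR75-1 0 did by limma, with 10 and 3 at an unadjusted p under 0.05. Of all 16071 genes tested, 1.26% and 0.946% passed, with 2635 and 1794 at an unadjusted p under 0.05. The 1 gene was FJX1, a known YAP target that encodes a secreted protein of the four-jointed family. Its FPKM in MDA-MB-468 was 24.1 and 23.5 in DMSO and 9.16, 10.2 and 9.66 in PKC412. It fell by 1.22 on the log2 scale (SE 0.14, limma adjusted p = 0.00775), and the call was lost without either DMSO sample of MDA-MB-468. In ZR75-1 FJX1 was at 5.63 and 7.59 in DMSO and between 6.00 and 7.06 in PKC412 (log2 difference -0.04, SE 0.14), and the difference between the drug effects of the lines was -1.18 (limma adjusted p = 0.0843), which did not pass.

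The 15 tested targets other than the members had a median log2 difference of -0.17 in MDA-MB-468, where the median of all genes was 0.11, and of 0.08 in ZR75-1, where it was 0.07. F3, which encodes tissue factor, had means of 15.4 ± 4.32 (SD, n = 2) without and 6.77 ± 1.51 (SD, n = 3) with PKC412 in MDA-MB-468 and did not pass (log2 difference -1.07, SE 0.28, limma adjusted p = 0.147). TGFB2, a TGF-beta ligand, was at 6.05 ± 2.02 (SD, n = 2) and 2.34 ± 0.655 (SD, n = 3), with a difference of the same size that also did not pass (-1.06, SE 0.21, limma adjusted p = 0.0582). Other targets in MDA-MB-468, such as MYOF and CRIM1, had positive differences with wide errors (0.89, SE 0.57, and 1.16, SE 0.57). TGFB2, MYOF, CRIM1 and AMOT were picked for mention after their values were seen. By limma, 0 of the 16 tested pathway regulators passed in either line (2 in MDA-MB-468 and 1 in ZR75-1 at an unadjusted p under 0.05), and their median was 0.24 in MDA-MB-468. The same held for the 4 tested TEAD and VGLL genes (1 and 1), the 2 tested CCN genes (0 and 1) and the TAM receptors with their ligand, 3 genes (1 and 0). After the GC and length adjustment, 9 of the 40 were lower in MDA-MB-468 and none higher, among them F3 (-1.47), TGFB2 (-1.68), FJX1 (-1.05) and TEAD4 (-0.59), and in ZR75-1 AMOT was lower (-0.84) and WISP2 higher (1.33). Of all 16048 genes tested with that adjustment, 262 passed as lower and 316 as higher in MDA-MB-468, and 173 and 279 in ZR75-1. The list was chosen with earlier results known, so nothing is read from these counts.

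**Figure D5:**
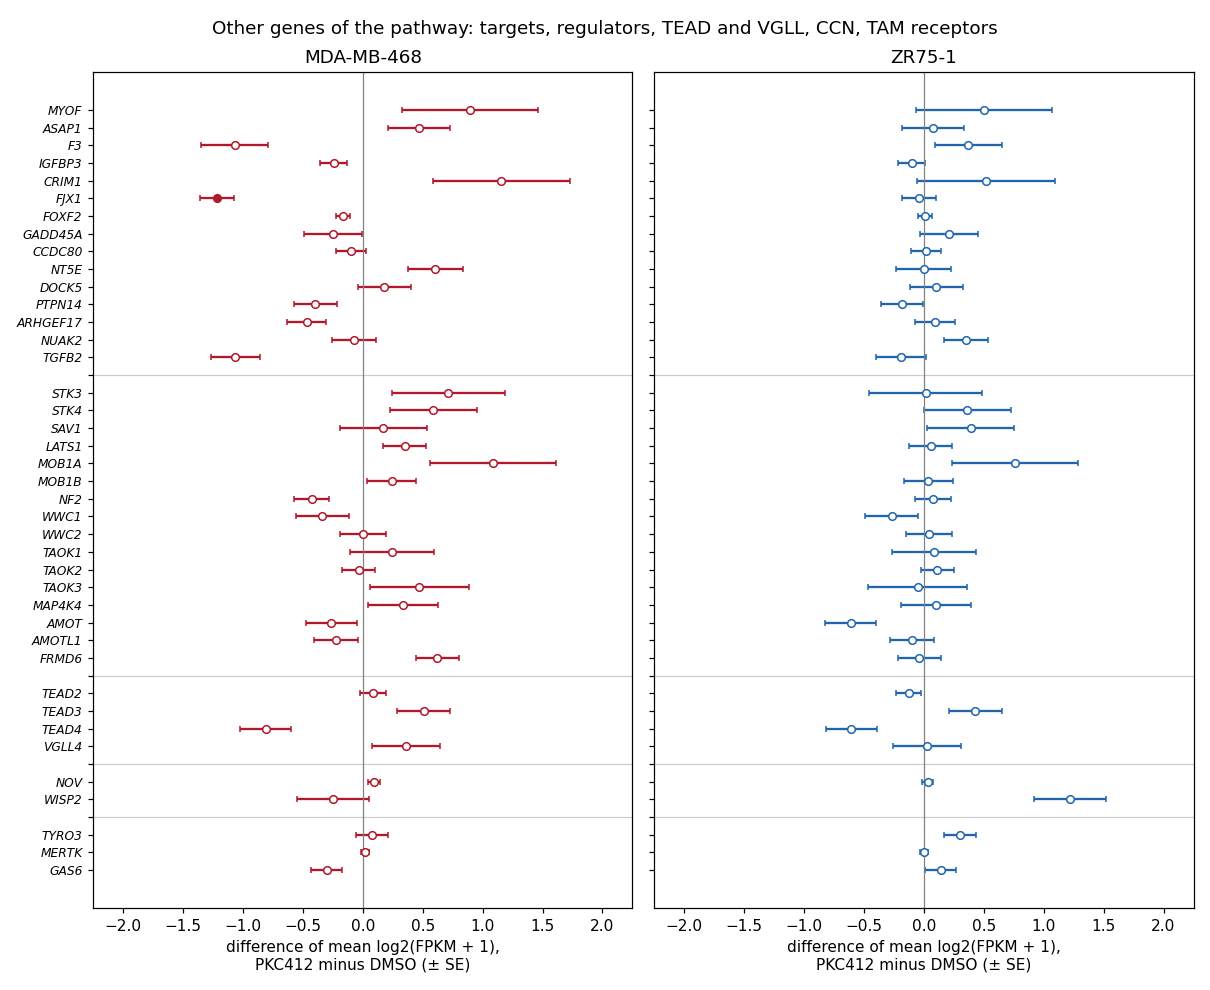
Difference of mean log2(FPKM + 1) between PKC412 and DMSO, with its standard error, for 40 further pathway genes in MDA-MB-468 (left) and ZR75-1 (right), grouped from top to bottom as targets, regulators, TEAD and VGLL genes, CCN genes, and TAM receptors with their ligand; filled points passed the limma threshold over all genes. FJX1 (-1.22) in MDA-MB-468 is the 1 filled point.

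Between the lines, 20 of the 40 genes differed in DMSO, 18 of them lower in ZR75-1, and 27 differed in PKC412, 22 of them lower. Of all genes tested, 42.4% differed and 26.5% were lower in DMSO, and 58.6% and 37% in PKC412, so differences between the lines were common among genes of any kind. Among the 15 targets, 10 were lower in ZR75-1 in DMSO and none higher, with a median log2 difference of -1.03 against -0.11 over all genes tested. IGFBP3, which binds insulin-like growth factors, was at 92.0 and 101 in MDA-MB-468 and 1.86 and 2.30 in ZR75-1 in DMSO (-4.99, SE 0.12, limma adjusted p = 5.42e-08). NT5E, the ecto-enzyme CD73, was at 11.3 and 17.2 against 0.0897 and 0.132 (-3.75, SE 0.25). F3 (-3.56, SE 0.31), GADD45A, a stress-response gene (-3.06, SE 0.26), and CCDC80, which encodes a secreted matrix protein (-2.83, SE 0.14), also had lower levels in ZR75-1. TEAD2 was lower as well (-3.04, SE 0.12, limma adjusted p = 6.43e-07), with an FPKM of 20.9 and 21.5 in MDA-MB-468 and 1.71 and 1.69 in ZR75-1 in DMSO.

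Of the 16 regulators, 4 were lower and 1 higher in ZR75-1 in DMSO, where 26.5% of all genes tested were lower and 15.9% higher, so these counts are no more than the background. In the small lists, 2 of 4 TEAD and VGLL genes were lower, 1 of 2 CCN genes was higher and 2 of 3 genes of the TAM list were lower.

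The 2 pathway genes with higher levels in ZR75-1 in DMSO were WISP2 and TAOK2. WISP2, a CCN family gene like CTGF and CYR61, was at 1.88 and 1.47 in MDA-MB-468 and 27.1 and 22.3 in ZR75-1 (3.26, SE 0.33, limma adjusted p = 0.000104), so the order of the lines was opposite for WISP2 and for the 2 CCN members above. TAOK2, a kinase upstream in the cascade, was at 4.32 and 4.01 against 16.1 and 17.2 (1.77, SE 0.15, limma adjusted p = 3.65e-05). In PKC412, TEAD4 (0.53, limma adjusted p = 0.0425), WWC2 (0.51, limma adjusted p = 0.0323) and the receptor TYRO3 (0.34, limma adjusted p = 0.0376) passed as higher in ZR75-1 too. All 3 calls were insecure: of the 10 fits with 1 sample left out, TEAD4 passed in 5, WWC2 in 6 and TYRO3 in 3. TEAD4 was also lost with median-ratio rescaling (limma adjusted p = 0.0522), and TYRO3 with the GC and length adjustment (limma adjusted p = 0.0721).

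The genes whose profile over the 10 samples was most like that of CTGF were sought among the 12343 genes whose mean FPKM exceeded 1 in some group, by the root mean square difference of centred log2(FPKM + 1). They were GJA5 (0.290), a gap junction gene, CYR61 (0.298) and ZBED2 (0.323). In MDA-MB-468 the mean FPKM of GJA5 was 4.51 ± 0.207 (SD, n = 2) without and 0.722 ± 0.0638 (SD, n = 3) with PKC412, and in ZR75-1 it was 0.0289 and 0.0102. For VGLL1 they were KLK8 (0.449), SEC61G (0.452) and RPL39L (0.458), a looser likeness. KLK8, a secreted protease, had means of 93.8 ± 5.59 (SD, n = 2) without and 58.5 ± 13.8 (SD, n = 3) with PKC412 in MDA-MB-468, and of 0.952 and 0.603 in ZR75-1. These samples share their line and treatment, and the likeness is a description.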

How the data were processed

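RNA from 10 samples was sequenced as TruSeq libraries on a HiSeq2000. The deposited values are FPKM per gene symbol, 1 file per sample, from the authors' in-house pipeline. The submitters' processing notes name CASAVA 1.82, TopHat2 and hg19. The annotation and any filter are not given in the sources used here. Low FPKM showed no steps of whole reads (the lowest above 0 was 2.19e-318), so depth is unknown. The methods describe triplicates and 3 figure legends another dose than the labels. The 2 DMSO samples per line given here and the labels' dose were used.

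Groups came from the sample titles. The 10 members and the lists of pathway genes and markers were chosen with earlier results of these data known. Differences were tested with limma 3.58.1 (R 4.3.3) on log2(FPKM + 1), fitting the means of 4 groups with 6 residual degrees of freedom and a trended eBayes prior. Genes entered if their mean FPKM exceeded 0.1 in any group, and p-values were adjusted after Benjamini and Hochberg, with a threshold of 0.05. A fold change on this scale understates the change of low genes. The script was tested on simulated data. The members' drug effects carry no p-value, since they had guided the choice. The p-values of members between the lines, and those of the listed pathway genes and markers, are descriptive for the lists' known results. With 2 samples against 3, no exact test of 1 gene was used.

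Named genes were all members, the pathway genes past the threshold in a contrast (at most 5 raised and 5 lowered by size), and the 3 genes with the profile most like CTGF and most like VGLL1. GC content and length came from GENCODE release 29 (longest protein-coding transcript, GRCh38), by symbol, for 20638 genes (88.1%). For the GC and length adjustment, polynomials of degree 3 were fitted per sample to deviations from the line mean. Upstream sequences came from RefSeq on GRCh38.p14, and no coordinates of hg19 are printed. The alternatives were a pseudocount of 0.1, no filter or a mean FPKM above 1, median-ratio rescaling (7685 genes), the GC and length adjustment, eBayes without a trend, replicate blocks, fits of 1 line and each sample left out. Python 3.11.15 with numpy 2.4.6, pandas 2.3.3 and matplotlib 3.10.9 did the rest.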

Additional observations from a re-analysis of the deposited data

Results flagged for a closer look

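For CTGF and ANKRD1 the difference between the PKC412 effects of the lines lay past the limma threshold. Both are members chosen with their drug effects in these samples known, so these values are a description and not an independent test. The log2 difference of the effects, MDA-MB-468 minus ZR75-1, was -2.257 for CTGF (SE 0.17) and -1.529 for ANKRD1 (SE 0.15). CTGF had a mean FPKM of 0.191 and ANKRD1 of 0.0321 in ZR75-1 in DMSO, so both were close to the lower end of the log2(FPKM + 1) scale in that line. By ratios of mean FPKM, CTGF was 11.6-fold lower in MDA-MB-468 and 3.72-fold lower in ZR75-1. With a pseudocount of 0.1 the difference for CTGF was -2.41 and did not pass. How far the low starting level in ZR75-1 sets these differences was not tested. Groups of 2 and 3 samples are too small for a search for single outlying samples.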

How the results depend on the processing

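The counts between the lines kept within 1.5 times the reported ones in every alternative run. The counts for the drug did not. In MDA-MB-468, 202 genes passed as reported, 116 with a pseudocount of 0.1, 578 with the GC and length adjustment and 81 with that line fitted alone; in ZR75-1, 152 passed, 452 with the adjustment (279 higher and 173 lower, against 120 and 32) and 12 with that line alone. The difference of the drug effects was past the threshold for 43 genes, for 27 with a pseudocount of 0.1, for 68 without a filter on low FPKM, for 68 with eBayes without a trend and for 210 with the adjustment. Of the members, 2 passed in ZR75-1 with the adjustment, against 1, and 0 with ZR75-1 alone. For the difference of the effects 2 members passed, 1 with a pseudocount of 0.1 and 4 with the adjustment. Of the other pathway genes, 1 passed in MDA-MB-468, 2 with median-ratio rescaling and 9 with the adjustment; in ZR75-1 0 passed, and 2 with the adjustment; for the difference of the effects 0 passed, 3 with the adjustment and 1 with eBayes without a trend. At least 3-fold in ZR75-1 were 2 members, and 0 with 1 added to both means. Apart from values that follow from fewer genes or samples, the cause was not tested.

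With 1 sample left out, the genes called ranged from 65 to 324 in MDA-MB-468, from 59 to 183 in ZR75-1 and from 16 to 64 for the difference of the effects. Between the lines they ranged from 5001 to 7468 in DMSO and from 7923 to 9884 in PKC412. Members called ranged from 3 to 5 in MDA-MB-468, from 2 to 3 for the difference, from 5 to 7 between the lines in DMSO and from 6 to 7 in PKC412. Other pathway genes called ranged from 0 to 1 in MDA-MB-468 and for the difference, from 16 to 21 between the lines in DMSO and from 18 to 28 in PKC412. Members at least 3-fold apart ranged from 4 to 6 in MDA-MB-468 and from 2 to 4 in ZR75-1. CTGF, CYR61 and ANKRD1 in MDA-MB-468 and VGLL1 in ZR75-1 stayed past the threshold in all 10 such fits. No value that had passed changed sign.

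Whether the replicate numbers in the titles pair the DMSO with the PKC412 samples of a line is not known. The correlations below cannot decide it, since the deviations of 2 DMSO samples mirror each other and the GC slopes differed between samples. Deviations of same-numbered DMSO and PKC412 samples of a line correlated at -0.69 and -0.61 in MDA-MB-468 and at 0.12 and -0.63 in ZR75-1 (across 7685 genes). Between the lines, deviations of same-numbered DMSO samples correlated at 0.85. With 2 DMSO samples per line the deviations mirror each other, so both numbers must give that 1 value. Those of PKC412 correlated at -0.25, 0.54 and -0.01 between the lines. The 1 value in DMSO and the mixed values in PKC412 do not show whether same-numbered samples of the lines belong together. In a fit with a replicate block per line, 0 genes passed in MDA-MB-468, in ZR75-1 and for the difference of the effects (703, 589 and 445 at an unadjusted p under 0.05), and so 0 members did. With the block across both lines, 9 genes and 1 member passed for the difference of the effects. With that block the call of ANKRD1 for that difference was lost. The call of WWTR1 between the lines in DMSO (limma adjusted p = 0.0604) was lost too. So were those of TEAD4 and TYRO3 between the lines in PKC412 (limma adjusted p = 0.0704 and 0.0902). The depth behind a value is unknown, so no limit of detection can be given for FPKM near 0.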
